A study of Mus musculus with 27 samples.

Results

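DNA methylation was examined at 9 genes of the contractile apparatus of skeletal muscle (Neb, Acta1, Tpm1, Tnni2, Mylpf, Mybpc2, Actn3, Des and Ryr1) in C2C12 cells. C2C12 is an established line of mouse muscle precursor cells (myoblasts), which in low serum fuse and form myotubes. The genes were taken by name. For each, every measured position of build mm10 from 5 kb before the gene start to 1 kb past the gene end was used if it had a value in all 27 libraries. The 9 genes are part of 12565 genes with a known strand and a measured start, body or end. Positions were joined into runs wherever the gap between neighbours was at most 200 bp, which gave 13 runs of 18447 in the whole table. All 27 libraries came from one line and one treatment: cells differentiated in 2% horse serum, then shocked with 50% horse serum for 2 h, which sets the circadian clocks of the cells in a dish to a common phase. Collection began at 12 h after the shock and went on in steps of 6 h until 60 h, giving 9 time points with 3 replicates each. Unshocked cells were not analysed here, and transcript levels were not used here, so fusion of the cells and the expression of the 9 genes were not checked.

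The sarcomere is the repeating unit of the muscle fibre, in which thin filaments of actin slide past thick filaments of myosin. Tropomyosin and the troponins on the thin filament gate the contact with myosin, the Z-disc anchors the thin filaments, and calcium released through the ryanodine receptor opens the gate. In most mammalian cells CpG-rich gene starts carry little methylation, while CpG-poor starts and gene bodies are often methylated. The myogenic factors that switch these genes on bind E-boxes, and serum response factor binds CArG boxes. Reduced representation bisulfite sequencing (RRBS) reads only CpGs in short restriction fragments, so each gene is seen at a few places. Of the 488 positions of the table in the 9 windows, 420 had a value in every library.

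The promoters of Acta1, Tpm1 and Des are printed because these are the members whose RefSeq promoter (250 bases before the start and 50 after, GRCm38.p6, the assembly that mm10 names) held CpGs with a level. Bases are 5′ to 3′ on the gene's strand, in lower case, with the CpGs that had a value in all 27 libraries in capitals. The Acta1 promoter lies at chr8:123894726-123895025 on the minus strand, the Tpm1 promoter at chr9:67049164-67049463 on the minus strand, and the Des promoter at chr1:75360042-75360341 on the plus strand.
Acta1: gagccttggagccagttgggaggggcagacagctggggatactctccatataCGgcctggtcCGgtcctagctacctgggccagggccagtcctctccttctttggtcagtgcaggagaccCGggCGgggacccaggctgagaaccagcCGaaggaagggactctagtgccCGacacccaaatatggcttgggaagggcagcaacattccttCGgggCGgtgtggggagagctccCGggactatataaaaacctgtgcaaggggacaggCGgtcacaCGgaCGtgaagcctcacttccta
Tpm1: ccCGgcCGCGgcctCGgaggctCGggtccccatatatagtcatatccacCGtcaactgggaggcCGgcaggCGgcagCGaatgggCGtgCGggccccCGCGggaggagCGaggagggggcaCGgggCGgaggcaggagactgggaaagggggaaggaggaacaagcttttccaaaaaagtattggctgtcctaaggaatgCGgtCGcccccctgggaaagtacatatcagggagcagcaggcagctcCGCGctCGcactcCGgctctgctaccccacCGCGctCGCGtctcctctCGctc
Des: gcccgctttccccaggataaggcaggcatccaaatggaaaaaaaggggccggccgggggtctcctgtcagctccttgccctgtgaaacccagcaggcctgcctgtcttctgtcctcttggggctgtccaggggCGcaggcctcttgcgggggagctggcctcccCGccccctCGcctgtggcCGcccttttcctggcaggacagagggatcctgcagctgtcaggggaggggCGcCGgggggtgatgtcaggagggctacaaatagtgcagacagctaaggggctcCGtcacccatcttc

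All 12 CpGs of the Acta1 promoter and all 27 of the Tpm1 promoter had a value in every library, and 7 of 11 in Des. A further 3 CpGs of Des, in lower case, had a value in 25 libraries, and 1 had none. The mean levels of the CpGs in capitals were 10.1% ± 3.46 for Acta1, 2.54% ± 1.46 for Tpm1 and 7.81% ± 4.85 for Des (SD over 27 libraries, as for every level below unless stated). With every value present counted, that of Des was 10.5% ± 5.28. None of the 3 sequences was highly methylated. RefSeq entries matched 6 of the 9 genes; Neb, Tnni2 and Actn3 were without one. The entries of Ryr1, Mybpc2 and Mylpf held 9, 9 and 2 CpGs, none of them measured. The restriction site CCGG, on which RRBS with MspI depends, occurred 3 times in each of the Acta1, Tpm1 and Des promoters and not in those of Ryr1, Mybpc2 and Mylpf, against 52.8% of 32851 promoters of this length. An E-box (CANNTG, which reads the same on both strands) was found in 72.3% of promoters, 2 times in Acta1, Des and Mybpc2, 1 time in Tpm1 and Mylpf, and not in Ryr1. A CArG box, searched on both strands, was found in 1.63% of promoters and in Acta1 alone among the 6, at 73 bp before the start. The measured CpG nearest to it, 79 bp before the start, had a level of 11.9% ± 4.96. The MEF2 site, searched on both strands, was found in 3.19% of promoters and in none of the 6.

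A gene start is here the stretch from 1000 bp before to 500 bp after the annotated start, the body runs from there to 500 bp before the gene end, and upstream means farther than 1000 bp before the start. All 9 genes had a start level, 3 (Acta1, Tpm1 and Des) had a body level, and none had a level at the gene end. Start levels spanned nearly the whole range. Neb (78.8%) and Tnni2 (78.1%) were highest and did not differ beyond their spread. Mybpc2 followed at 41.5%, from 5 positions at least 836 bp before the start; with the median over positions it was 25.4%. Ryr1 stood at 18.9%. The means of Acta1 (12.4% ± 4.09) and Des (12.2% ± 2.66) lay together, but Des was at 7.97% with the median over positions. Actn3 (5.66% ± 2.10), Mylpf (3.72% ± 5.49) and Tpm1 (3.36% ± 2.21) were lowest, with overlapping spreads. The Mylpf value comes only from positions 597 to 992 bp before the annotated start, inside a neighbouring gene, and neither Mylpf nor Mybpc2 had a position with a value in all 27 libraries within 500 bp of it. So 2 of the 9 starts stood at 50% or more, against 6.28% of 9320 protein-coding genes. Protein-coding genes were counted, here and below, only if they had a strand in the RefSeq promoter table. Neb, Tnni2 and Actn3 lack an entry there and were the exception, counted with a strand from general knowledge. Of the 6 members with an entry, the highest start was that of Mybpc2, at 41.5%. The median of the 9 was 12.4% and that of all protein-coding starts 3.45%.

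**Figure D1:**
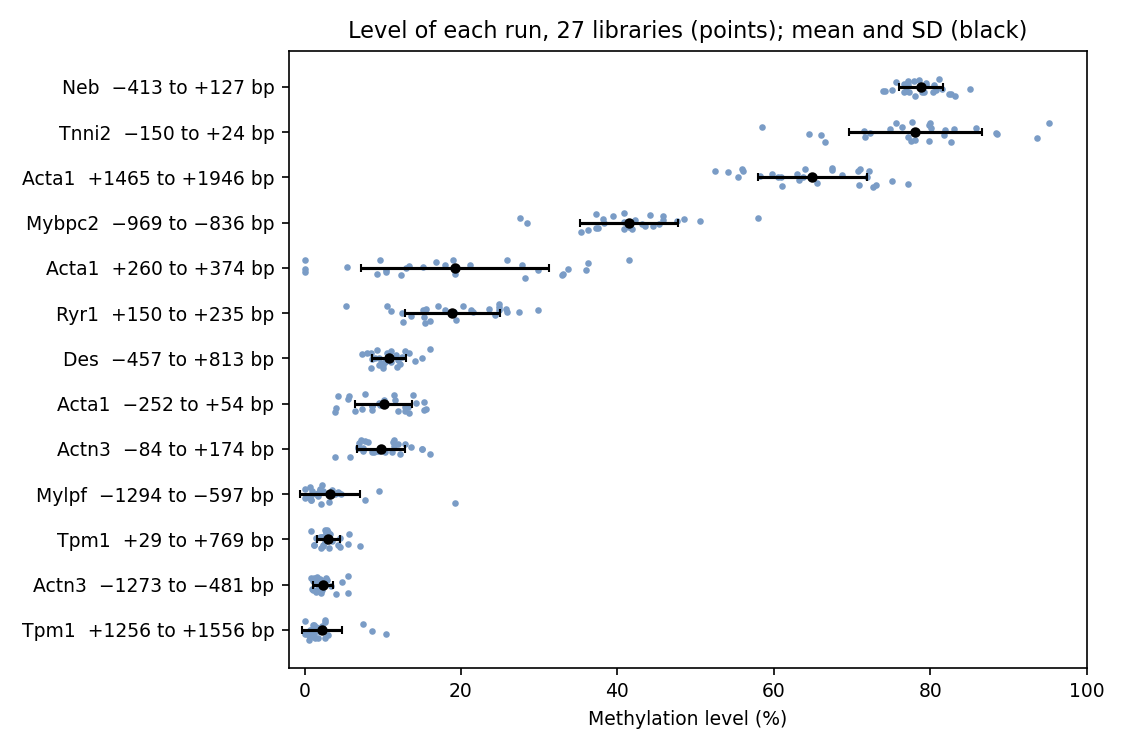
Methylation level in percent (x axis) of the 13 runs at the 9 genes, named by their distance from the gene start in bp. Blue points are the 27 libraries and black marks the mean with its SD; the Neb and Tnni2 starts and the Acta1 body stay above 50% in every library, while the Tpm1 and Actn3 upstream runs stay under 11%.

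Within the thin filament, levels at the start covered both extremes. Nebulin, encoded by Neb (chr2:52136640-52338798, minus strand), is a giant protein that runs along the thin filament. Its single run, at chr2:52338671-52339211 with 18 positions from 413 bp before to 127 bp after the start, had a mean level of 78.8% ± 2.79. The lowest library was at 73.9%, the median at 78.6% and the highest, 12 h replicate 3, at 85.1%, so no library came near a low level. Only 1.73% of the protein-coding genes with a known strand had a higher start. The methylated stretch had an edge on its upstream side, with 25.1% ± 9.54 at 413 bp before the start, 68.2% ± 7.89 at 351 bp and 91.9% ± 4.46 at 262 bp. Past the start the level was 77.4% at 62 bp and 63.9% ± 8.94 at 127 bp.

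Troponin I of fast fibres, the inhibitory subunit of the troponin complex, is encoded by Tnni2 (chr7:142441816-142444410, plus strand). Its run of 9 positions from 150 bp before to 24 bp after the start (chr7:142441666-142441840) averaged 78.1% ± 8.51, with a lowest library of 58.5%, a median of 78.0% and a highest of 95.2%. Libraries spread more widely than at Neb, but none was under 50%. Levels dipped close to the start: the positions 130 to 150 bp before it had means of 85.9% to 86.4%, the pair at 46 and 47 bp before it 49.1% ± 20.3 and 48.3% ± 20.4, and the last position, 24 bp after it, 89.3% ± 8.44.

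Acta1 (chr8:123891758-123894775, minus strand) encodes skeletal alpha-actin, the main protein of the thin filament. It showed a low start and a high body. The run over the start (chr8:123894721-123895027, 18 positions) averaged 10.1% ± 3.63, from 3.85% in the lowest library to 15.5% in the highest, with a median of 10.2%. It also covers the beginning of the lncRNA Gm29773, which is annotated from the adjoining base on the opposite strand. A run of 6 positions 260 to 374 bp inside the gene (chr8:123894401-123894515) had a mean of 19.2% ± 12.0 and the widest spread of the 13, with a lowest library at 0%, a median of 18.0% and a highest of 41.5%. The body run of 24 positions, 1465 to 1946 bp after the start (chr8:123892829-123893310), averaged 64.9% ± 6.98, with 52.5%, 64.0% and 77.2% as lowest, median and highest. The ranges of the run over the start and the body run did not overlap.

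The body exceeded the start of Acta1 by 52.5 points ± 8.97, between 38.4 and 72.1 points, in 27 of 27 libraries. In a two-sided sign-flip permutation test over the libraries the p-value was 1e-05, the smallest that 100000 permutations can give (adjusted p 3.00e-05, Benjamini-Hochberg over the 3 genes with both segments). Across 4962 protein-coding genes with both segments, 7.03% had a start under 20% and a body at 50% or more, and the median of body minus start was 1.48 points. The library with the lowest start run was 12 h replicate 3, which also had the largest share of values at exactly 0 over the whole table (25.4%, against 5.15% in the library with the smallest). Without it the difference was 51.9 points.

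Tropomyosin 1, encoded by Tpm1 (chr9:67022590-67049672, minus strand), lies along actin in muscle and in other cells. Both of its runs were low. The first, 29 to 769 bp after the start with 74 positions (chr9:67048903-67049643), averaged 3.04% ± 1.45 and reached 7.10% in its highest library, and the other, 1256 to 1556 bp after it with 40 positions (chr9:67048116-67048416), averaged 2.26% ± 2.54 and reached 10.4%. The start the RefSeq promoter table gives for Tpm1, chr9:67049213, which the printed sequence surrounds, lies inside the first run. Start and body were split from the gene bound. The body positions from chr9:67048903 to chr9:67049168 thus lie within 500 bp after that promoter start, and the comparison does not set it against a body. Body minus start was −1.08 points ± 3.25, with the start higher in 19 of 27 libraries, and did not pass the sign-flip permutation test (adjusted p 0.096). It passed without 12 h replicate 3 (−1.33 points), 18 h replicate 3 (−1.32) or 48 h replicate 2 (−1.3). Among the thin filament genes the start levels thus ranged from 3.36% in Tpm1 to 78.8% in Neb.

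**Figure D2:**
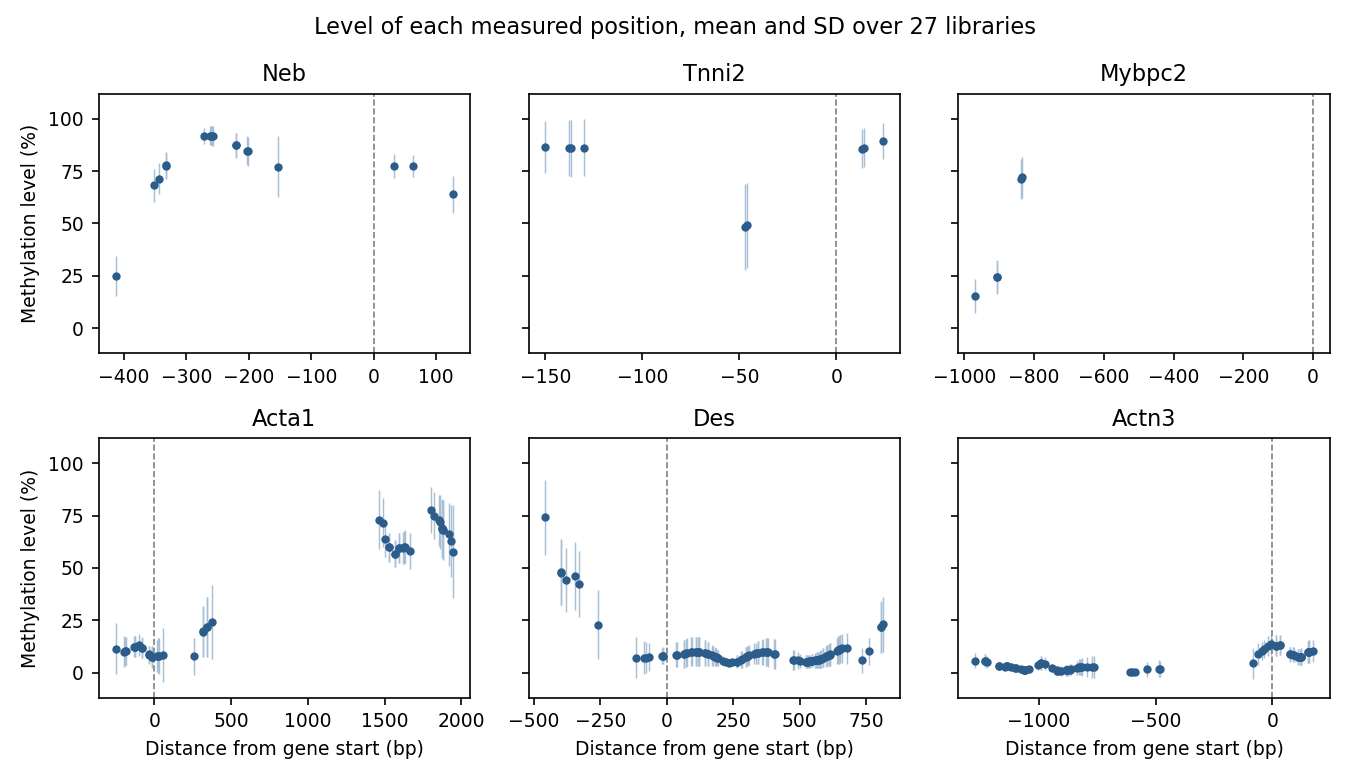
Mean methylation level in percent (y axis) with its SD over 27 libraries at each measured position, against the distance from the gene start in bp (x axis, dashed line at the start), for 6 of the 9 genes. The Neb edge at 413 bp before the start (25.1%), the Tnni2 dip (48.3%), the high Acta1 body and the fall in Des from 74.1% at 457 bp before the start are visible.

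The 2 thick filament genes were measured only before their starts. Mylpf (chr7:127208848-127214288, plus strand) encodes the phosphorylatable light chain of fast myosin. Its run of 33 positions from 1294 to 597 bp before the start (chr7:127207554-127208251) lies inside Tbc1d10b, a neighbouring gene on the opposite strand, and averaged 3.23% ± 3.87. The median library was at 2.12% and the lowest at 0%, and the highest, 24 h replicate 3, stood apart at 19.2%. A further 32 positions 177 to 278 bp before the start had a value in 26 libraries and position means of 1.45% to 3.08%. These 32 positions lie between the start of Tbc1d10b, at chr7:127208468 on the minus strand, and the annotated Mylpf start. The RefSeq promoter entry starts inside the annotated gene, at chr7:127211608, where no position was measured. The levels of the run thus describe a stretch of Tbc1d10b, and neither set describes that promoter start.

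Myosin-binding protein C of fast fibres, which braces the thick filament, is encoded by Mybpc2 (chr7:44501699-44524715, minus strand). Only 5 positions 836 to 969 bp before the start (chr7:44525551-44525684), between Mybpc2 and its neighbour Spib, were measured in every library. They averaged 41.5% ± 6.28, with a lowest library of 27.5%, a median of 41.5% and a highest of 58.0%. The mean combined a steep gradient: 72.0% ± 9.83 at 836 bp, 24.6% ± 7.87 at 907 bp and 15.4% ± 8.15 at 969 bp before the start. Closer to the gene, 2 positions measured in 23 libraries had means of 40.6% and 44.0%, and 3 positions 525 to 552 bp before the start, measured in 20 libraries, had means of 3.95% to 4.55%.

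Alpha-actinin 3 crosslinks thin filaments at the Z-disc of fast fibres and is encoded by Actn3 (chr19:4861216-4877909, minus strand). The run across its start, from 84 bp before to 174 bp after it with 25 positions (chr19:4877735-4877993), averaged 9.80% ± 3.08, with 3.85%, 9.25% and 16% as lowest, median and highest library. Farther out, a run of 48 positions 481 to 1273 bp before the start (chr19:4878390-4879182) had a mean of 2.38% ± 1.30 and a highest library of 5.56%. That run covers the start of Zdhhc24, the neighbouring gene on the other strand. With only the 500 bp on either side counted, the Actn3 start level was 9.22% in place of 5.66%.

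Desmin forms the intermediate filaments that tie neighbouring Z-discs together, and Des (chr1:75360292-75368579, plus strand) was the most densely measured of the 9, with 108 positions in 1 run from 457 bp before to 813 bp after the start (chr1:75359835-75361105). The run averaged 10.8% ± 2.18, with 7.31%, 10.4% and 16.1% as lowest, median and highest library. Its upstream edge was methylated: 74.1% ± 18.0 at 457 bp before the start, 48.0% ± 15.7 at 398 bp, 22.9% ± 16.4 at 261 bp and 7.19% ± 9.67 at 117 bp, the first CpG in capitals of the sequence printed above. Between the last 2, 4 positions 196 to 246 bp before the start, with a value in 25 libraries, had means of 15.7% to 21.5%. Levels then stayed low past the start and reached 23.1% ± 13.1 at 813 bp after it. The start of Des exceeded its body by a mean of 3.59 points (body minus start −3.59 ± 4.81), in 20 of 27 libraries (sign-flip permutation test, adjusted p 0.00135). The start level included the methylated upstream edge. The body level came only from 42 positions 502 to 813 bp after the start, in the same run. With the median over positions in place of the mean, body minus start was −0.645 points and did not pass.

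Ryr1 (chr7:29003340-29125179, minus strand) encodes the calcium release channel of the sarcoplasmic reticulum. Its 12 measured positions, 150 to 235 bp inside the gene (chr7:29124944-29125029), averaged 18.9% ± 6.04, with a lowest library of 5.36%, a median of 19.1% and a highest of 29.9%. Position means within the run lay close together, between 16.5% and 21.2%. Of the protein-coding genes with a known strand, 19.9% had a higher start.

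Neighbouring positions in these runs did not vary separately. In 108 pairs 1 bp apart, which are mostly the C and G of one CpG, levels differed by a mean of 0.0916 points. The median correlation over the 27 libraries was 0.991 for more distant pairs within 20 bp, 0.606 for distances over 60 and up to 80 bp, and 0.0926 for distances over 100 and up to 200 bp, as a description of positions that share their libraries. Whether the values were smoothed is not stated in the labels, and how this bears on the edges and dips described above was not tested. A number of positions is thus not a number of independent measurements.

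The time course asked whether levels followed the clock or the hours after the shock. None of the 13 runs passed in any of the 3 tests (limma, 27 libraries, Benjamini-Hochberg over 18447 runs). Any difference between time points was called in 0 of 13 runs, against 0.00542% of all runs (1 run, at Rplp2 and Pnpla2, named after its value was seen). A 24 h rhythm was called in 0 of 13 against 0%, and a linear trend in 0 of 13 against 0%. With limma at an unadjusted p under 0.05 the members numbered 0, 0 and 1 of 13, against 4.3%, 4.34% and 4.99% of all runs. The smallest adjusted p of a member was 0.976. With single positions as the features, 0 of 420 were called in each test, against 0.00413% of 871894 positions for time, 0% for rhythm and 0% for trend. At an unadjusted limma p under 0.05 the positions numbered 24 for time, 39 for rhythm and 16 for trend, against 4.17%, 3.91% and 4.48% of all positions. Of the 39, 29 were among the 108 of Des, whose run as a whole had an unadjusted limma p of 0.0888 (adjusted p 0.98), and of the 16, 11 were among the 12 of Ryr1.

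Neb had the narrowest limits among the highly methylated starts. The lowest time point mean was 76.6% ± 0.912 (36 h; SD, n = 3) and the highest 81.6% ± 4.12 (12 h), and the fitted 24 h amplitude was 0.131 points with an upper 95% limit of 2.27. At Tnni2 the means lay between 72.6% ± 12.7 at 12 h and 81.7% ± 6.76 at 60 h, with an amplitude of 1.55 points and an upper limit of 7.94. The Acta1 body ranged from 60.2% ± 5.68 at 54 h to 73.0% ± 2.08 at 36 h, with an amplitude of 0.848 points and an upper limit of 6.12. In Des the lowest mean was 8.94% ± 0.851 at 12 h and the highest 13.2% ± 2.65 at 54 h, with an amplitude of 1.27 points and an upper limit of 2.81. The largest amplitudes of the 13 were 3.53 points (upper limit 12.4) in the 6-position run of Acta1 and 3.47 points (upper limit 7.67) in Ryr1.

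**Figure D3:**
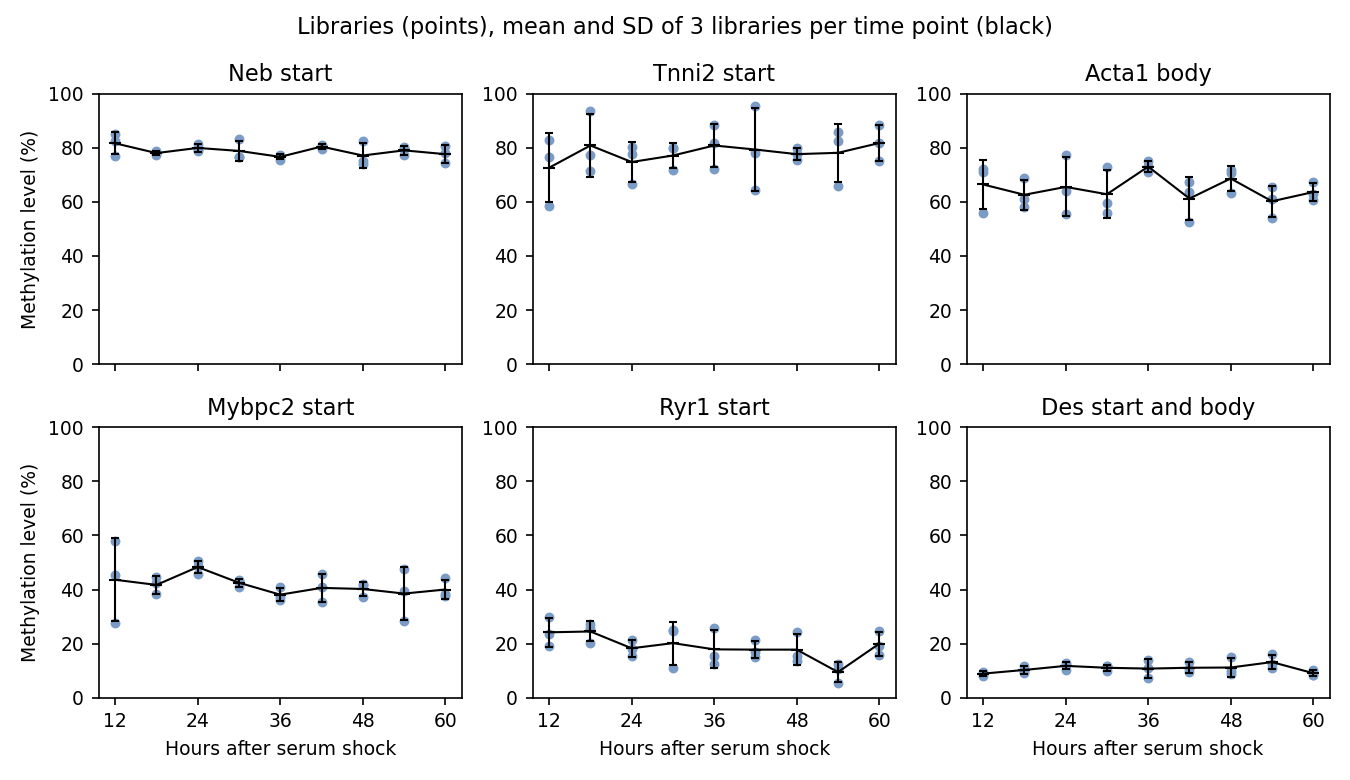
Methylation level in percent (y axis) against hours after the serum shock (x axis) in 6 runs. Points are libraries and black marks the mean and SD of 3 libraries per time point; the Neb means stay between 76.6% and 81.6%, and Ryr1 has its lowest mean, 9.51%, at 54 h.

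Ryr1 was the member with an unadjusted p under 0.05, in the trend. Its 3 libraries were at 23.6%, 19.1% and 29.9% at 12 h, at 12.6%, 10.5% and 5.36% at 54 h, and at 24.8%, 19.3% and 16% at 60 h. The 29.9% came from 12 h replicate 3, the library with the most missing values and the largest share of values at exactly 0. The values of 54 h lay under all those of 12 h, and those of 60 h overlapped with 12 h. The fitted slope was −8.65 points per 48 h (SE 3.15, 95% interval −15.1 to −2.17; limma p 0.0108, adjusted p 0.976), and downward slopes with an unadjusted p under 0.05 made up 2.59% of all runs. Without the 54 h libraries the slope was −5.31 (95% interval −11.9 to 1.28; limma p 0.109), and without the libraries of replicate number 3 it was −4.66. Mybpc2 had the next steepest slope, −5.59 points (SE 3.55, 95% interval −12.9 to 1.71; limma adjusted p 0.976), with 12 h libraries as far apart as 27.5%, 58.0% and 45.3%. Slopes of the other 11 runs lay between −2.25 points in Neb and 4.85 points in Tnni2. The median slope was −0.733 points for the 13 runs and −0.0222 points for all runs.

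**Figure D4:**
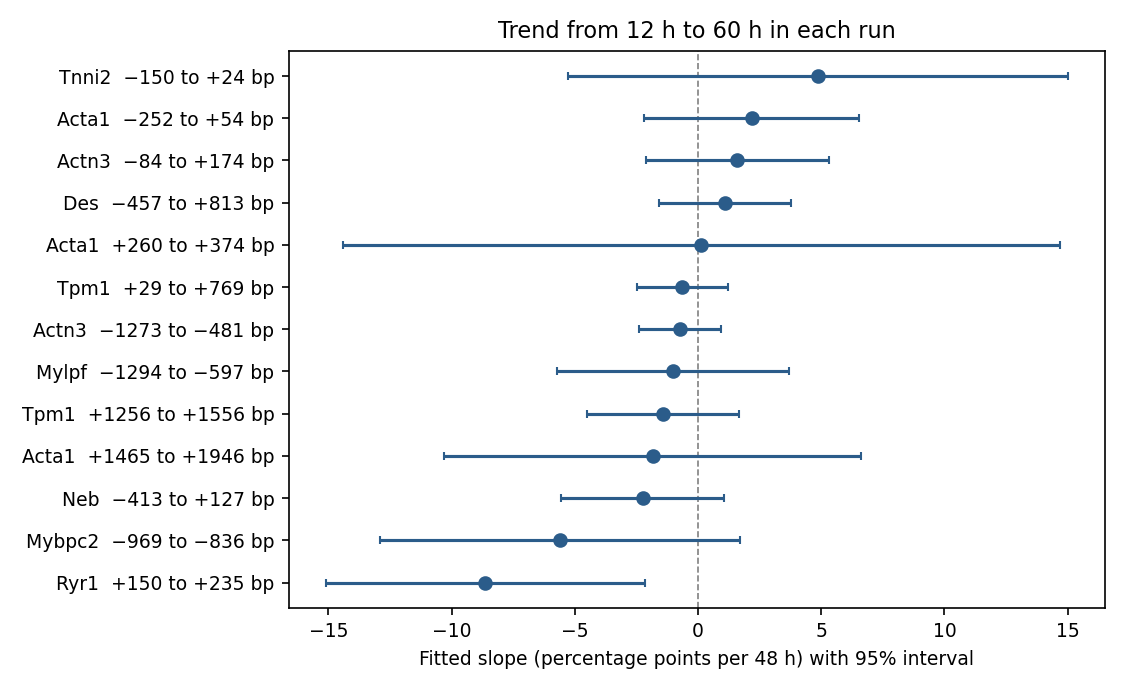
Fitted change in percentage points per 48 h (x axis) with its 95% interval in each of the 13 runs, from limma. The Ryr1 interval, −15.1 to −2.17, is the one that does not cross 0, before adjustment over all runs.

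A wider list of 83 muscle genes was drawn up by role and without the 9. Only the 66 with a strand in the RefSeq promoter table were used. The list gave a start level for 28 and a body level for 17. Its median start was 15.4%, with 4 of 28 starts at 50% or more and 12 under 10%, where 72.2% of protein-coding genes were under 10%. The highest were Tmod4, the tropomodulin that caps thin filaments in skeletal muscle, at 90.8% ± 1.84, Klhl41 at 74.2% ± 3.76, Hrc, a calcium-binding protein of the sarcoplasmic reticulum, at 73.6% ± 5.97, Mb (myoglobin) at 53.8% ± 6.72, and Actn2, the alpha-actinin of all striated muscle, at 41.7% ± 5.23. The lowest were Tpm4 (1.34% ± 1.83), Chrnb1 (1.89% ± 1.30), Tmod1 (2.10% ± 0.872), Sgcb (2.12% ± 2.68) and Myom1 (2.14% ± 1.67). Related genes could lie far apart. The tropomodulins Tmod4 and Tmod1 stood near opposite ends of the list. Actn2 stood at 41.7% where Actn3 stood at 5.66%, or at 9.22% within 500 bp of its start.

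By role, the median start was 4.97% in 5 thin filament genes, 31.7% in 3 thick filament genes, 16.9% in 8 genes of the Z-disc and cytoskeleton, 21.9% in 4 of excitation and calcium, and 15.4% in 8 of membrane and energy. Among bodies, 3 of 17 were at 50% or more, against 14.1% of 6549 protein-coding genes. The list held 51 runs, of which 0 were called in each time test with limma. At an unadjusted p under 0.05 the numbers were 6 of 51 for time, 1 for rhythm and 0 for trend, against 4.3%, 4.34% and 4.99% of all runs.

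**Figure D5:**
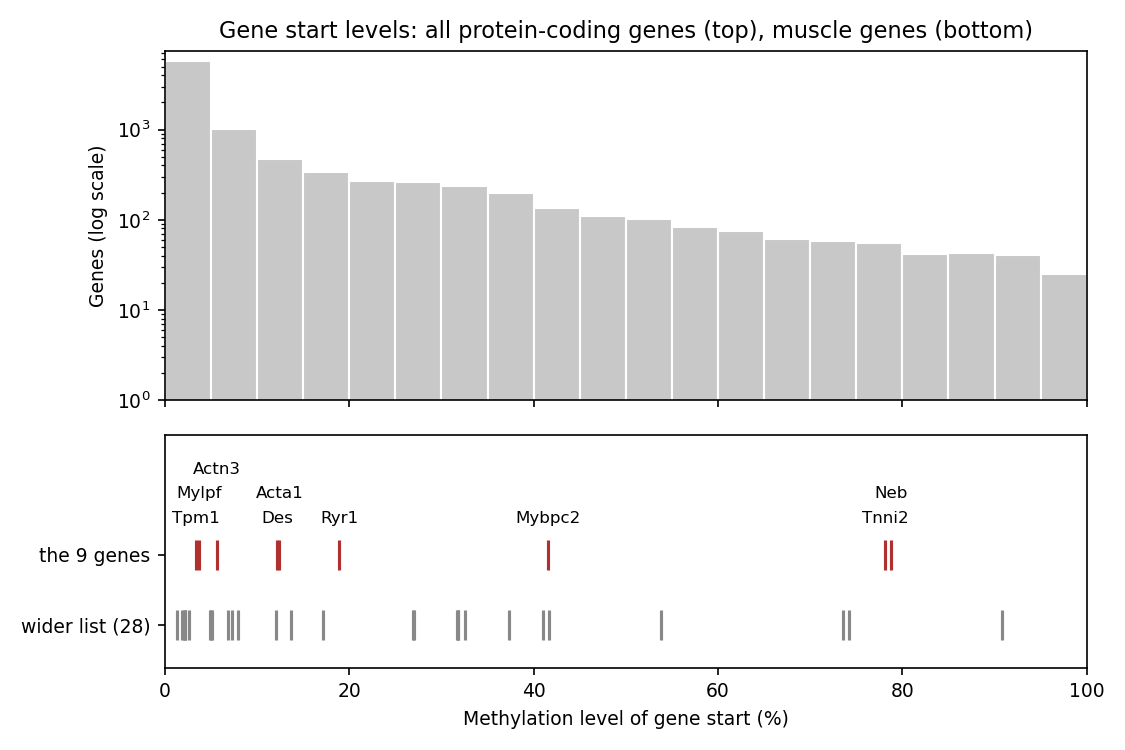
Methylation level of gene starts in percent (x axis). The top panel counts 9320 protein-coding genes in steps of 5 points on a log scale, and the bottom panel marks the 9 genes and the 28 measured starts of the wider list; Neb and Tnni2 sit with the few genes above 75%, and 3 of the 9 are under 10%.

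CpG density bears on which starts are seen. Promoters with 0 to 5 CpGs in the 300 bases had a level in 0.447% of cases and those with 21 or more in 79.5%. The median level fell from 26.7% with 0 to 5 CpGs to 16% with 6 to 10, 5.12% with 11 to 15, 3.35% with 16 to 20 and 2.34% with 21 or more. Beside these, the levels of Tpm1 (27 CpGs, 2.54%), Acta1 (12 CpGs, 10.1%) and Des (11 CpGs, 7.81%) are those of the CpGs in capitals. Neb, Tnni2 and Actn3, without a promoter entry, had no such CpG count.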

How the data were processed

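DNA methylation was measured by RRBS in 27 libraries. Per the labels' protocols, DNA was cut with an enzyme written as MpsI and bisulfite converted. The authors deposited 1 table of methylation levels, each a fraction between 0 and 1 for a position in a library. Trim Galore 0.4.0, cutadapt 1.9.1, Bismark 0.14.4, Bowtie2 and build mm10 are named in the submitters' processing notes, while their settings and any filters are not stated there. The table holds no read counts, so the depth behind a level is unknown and no counting interval can be given. Library means lay between 11.4% and 12.7%, and a library lacked between 1640 and 21925 values. All columns matched a sample by time point and replicate number.

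Levels were turned into percent. Of 937644 positions, 871894 (93%) had a value in all 27 libraries and were kept, and these formed 18447 runs (gaps up to 200 bp, 3 or more positions). Positions counted from 1 fell on a CpG in 99.98% of cases within RefSeq promoters. Gene bounds are those of RefSeq GRCm38.p6, and strands come from its promoter table, except for Neb, Tnni2 and Actn3, whose strands are general knowledge. Other genes without a strand there were left out of the gene levels. Tests were fitted on all runs with limma 3.58.1 in R 4.3.3 on percentage points, without a replicate block: the time point as a factor, a 24 h cosine and sine, and linear time. P-values were adjusted by Benjamini-Hochberg with a threshold of 0.05, and scripts were tested on simulated data. Start and body were compared by sign flips over libraries (100000 permutations, Python 3.11.15, scipy 1.17.1, numpy 2.4.6). The labels do not say whether replicates were separate cultures, so p-values cover only the spread among these libraries, and that may be technical. All 9 genes are named; of the wider list, the 5 highest and 5 lowest starts and any gene with a called run. The members, lists and tests were chosen with earlier results of these data known. Alternatives covered the replicate block, scale, covariate, gaps, missing values, start window, averaging, period and left-out libraries.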

Additional observations from a re-analysis of the deposited data

How the results depend on the processing

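In the time, rhythm and trend tests 0 of the features at the 9 genes were called under the alternatives run: the same 13 runs under another scale, covariate, block, period or set of libraries, 18 and 10 runs with gaps of at most 100 and 500 bp, 14 runs with values in at least 24 libraries, 12 gene segments and 420 single positions. Over all runs the count of the time test was 1, and it was 2 with the replicate block, 0 on the M value scale, 0 with the library mean as a covariate, 0 excluding the 54 h time point (an alternative chosen after seeing the data), and 36 with single positions as features; leaving out libraries gave 0 to 3. Of 108 pairs of libraries with the same replicate number, 0 had a correlation of deviations over 0.1. A small shared deviation could be missed by this check, so whether the numbers pair the samples is not settled. Of slopes, 4 changed sign: Acta1 260 to 374 bp inside the gene (−0.146 with the covariate), the Acta1 body (0.333 excluding 54 h), Mylpf (0.777 with gaps of at most 100 bp) and the Actn3 upstream run (0.0672 with gaps of at most 500 bp). Leaving out libraries moved these slopes across 0: −6.23 to 5.74 for the inner Acta1 run, −3.81 to 0.0713 for its body, −2.11 to 0.38 and −2.75 to 1.24 for the 2 Tpm1 runs, and −1.79 to 0.462 for Mylpf. The Ryr1 trend had an unadjusted limma p under 0.05 in 36 of 38 settings, with adjusted p between 0.918 and 0.998. Of these settings 27 left out a single library and shared nearly all their data, so they are not separate checks. Excluding 54 h the limma p was 0.109, and the highest over the settings was 0.203.

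Levels that moved by more than 1 SD were the Neb start (84.4% as a median over positions, 75.8% with positions 1 bp apart joined), the Mybpc2 start (25.4% as a median), the Des start (7.97% as a median) and the Actn3 start (9.22% within 500 bp). In a window of 500 bp Mylpf and Mybpc2 had no start level. Body minus start of Des was −0.645 points with the median over positions. That of Tpm1 ranged from −1.89 to −0.381 over left-out libraries and passed the permutation test without replicate number 3, 12 h replicate 3, 18 h replicate 3 or 48 h replicate 2; with the replicate block (means per number, no test) its highest mean was 0.532. Leaving out single libraries in the level comparisons was chosen after seeing the data. Without read counts, depth cannot be weighed.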

Other observations

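The 6-position run inside Acta1 (chr8:123894401-123894515) had the largest SD over the 27 libraries of the 13 runs at the 9 genes. The runs on other chromosomes whose levels varied most closely with it over the libraries were looked up by Pearson r. They lay near Icam1, Icam4 and Icam5 (chr9:21029547-21030140, r 0.721, mean level 27.8% ± 3.46), near Timm8a1 and Btk (chrX:134541304-134541834, r 0.693, 41.2% ± 6.44) and at Fbrsl1 (chr5:110447514-110448838, r 0.687, 1.87% ± 0.533). These are the highest of all runs near genes and share their libraries, so no p-value is given.

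Among the 17 measured bodies of the wider list, Klhl41 (96.7% ± 1.42) and Hrc (94.4% ± 5.98) were highest. They also had starts at 74.2% and 73.6%, whereas Unc45b, a myosin chaperone, had a start of 31.8% ± 7.5 and a body of 53.9% ± 6.72. In Klhl41 the start positions ended at chr2:69670593 and 20 body positions covered chr2:69670631-69671064. In Hrc, 5 start positions ended at chr7:45335715 and 5 body positions covered chr7:45335775-45335852. In Unc45b, 3 start positions ended at chr11:82911751 and 8 body positions covered chr11:82911818-82911990. In these genes the levels thus describe adjoining stretches, not the whole body. The measured body of Klhl40 was at 31.7% ± 3.42 and that of Myl1, a light chain of fast myosin, at 32.9% ± 8.93.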
